A study of Mus musculus with 16 samples.

Results

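Complex I is the first enzyme of the mitochondrial respiratory chain, and its nuclear subunit genes carry symbols that begin with Nduf. The complex I genes described here are those whose name on the array begins with Nduf and whose heart signal was well above background on at least 4 of 16 arrays for 1 or more probes. By name the array held 51 such probes for 36 genes described here, among 41174 probes and 27670 gene names in all. Of these, 47 probes passed, and all 36 genes had at least 1 of them. They comprise 6 nuclear core subunits, 29 accessory subunits and the assembly factor Ndufaf1. The accessory count goes by name and holds Ndufa4, which is now counted as a subunit of complex IV. Ndufb9 had values on 13 arrays and did not reach the minimum of 15 set for the model, so 35 genes were tested.

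The RNA came from heart ventricles of 129Sv mice collected 1 week after surgery. The groups were CHIP-/- mice with trans-aortic banding (TAB), CHIP-/- mice with a sham operation, wild-type (WT) mice with TAB and WT mice with a sham operation, each with 4 biological replicates on 4 arrays. TAB narrows the aorta and so puts the left ventricle under pressure overload, and CHIP, the product of Stub1, is a co-chaperone with ubiquitin ligase activity. Heart RNA carried the red dye on every array, beside a green-labelled pool of whole neonatal mouse RNA, and a value is the log2 ratio of heart over that pool. The sources used here do not give which part of Stub1 was deleted or whether a replicate pooled animals.

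Complex I takes electrons from NADH, passes them along a flavin and a chain of iron-sulphur clusters to ubiquinone, and pumps protons across the inner mitochondrial membrane. The core subunits do the catalysis: those encoded in the nucleus form the matrix arm with the electron path, and those encoded by mitochondrial DNA form the membrane arm with the proton channels. Accessory subunits surround the core and are needed for assembly and stability, and assembly factors help to build the complex without staying in it. Heart muscle depends on oxidative phosphorylation and is among the tissues richest in this enzyme. The mitochondrially encoded subunits were not analysed here.

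RefSeq (GRCm38.p6) upstream windows of 250 bases were matched for 33 of the 36 genes, all but Ndufs1, Ndufa2 and Ndufb9. Each window lies before 1 annotated start of its gene. Those of Ndufs7 and Ndufa13 fall inside the full span of the gene, and a few others, such as that of Ndufa5, overlap it. They were searched on both strands for letters bound by factors that are known to drive respiratory genes, none of which overlap each other: the palindromic site of NRF-1 by name, CCGGAAG for ETS factors such as GABP, AAGGTCA for estrogen-related receptors (ERR), and AAGATGGC for YY1. The ETS letters stood in 4 of the 33 windows (12.1%), against 7.05% of the windows of 27025 genes, and the ERR letters in 3 (9.09%), against 4.05%. The NRF-1 letters stood in 1 window, that of Ndufa11, against 0.781% of all windows, and the YY1 letters in 0 of 33, against 1.59%. These counts are too small to set the genes apart, and a match is a description of letters. Shown are the windows of the core Ndufs3 and the accessory Ndufb7, with the ETS letters close to the start, and 2 of the windows with the ERR letters. Each pair holds a gene that rose with TAB in WT hearts (Ndufb7, Ndufs5). The other gene of each pair was not called there and fell in CHIP-/- hearts (Ndufs3, Ndufb2). Not shown are the ETS windows of Ndufaf1, which fell in both genotypes, and of Ndufb6, which was called in neither. Also not shown is the ERR window of Ndufb4, which fell in CHIP-/- hearts and was not called in WT hearts. No link between letters and response was tested. Each run reads 5′ to 3′ towards the start of the gene, and capitals mark the motif, which in Ndufs5 lies on the other strand.
Ndufs3, chr2:90904722-90904971, minus strand, ETS letters 27 bases before the start: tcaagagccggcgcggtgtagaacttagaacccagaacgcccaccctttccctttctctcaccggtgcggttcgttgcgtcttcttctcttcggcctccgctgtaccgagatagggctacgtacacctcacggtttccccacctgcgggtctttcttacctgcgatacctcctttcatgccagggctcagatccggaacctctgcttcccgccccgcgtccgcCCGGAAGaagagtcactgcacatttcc
Ndufb7, chr8:83566508-83566757, plus strand, ETS letters 20 bases before the start: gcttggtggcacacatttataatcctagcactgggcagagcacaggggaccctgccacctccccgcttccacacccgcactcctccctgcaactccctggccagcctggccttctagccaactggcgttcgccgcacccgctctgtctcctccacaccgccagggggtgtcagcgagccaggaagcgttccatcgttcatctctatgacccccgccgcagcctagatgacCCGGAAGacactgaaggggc
Ndufb2, chr6:39592315-39592564, plus strand, ERR letters 181 bases before the start: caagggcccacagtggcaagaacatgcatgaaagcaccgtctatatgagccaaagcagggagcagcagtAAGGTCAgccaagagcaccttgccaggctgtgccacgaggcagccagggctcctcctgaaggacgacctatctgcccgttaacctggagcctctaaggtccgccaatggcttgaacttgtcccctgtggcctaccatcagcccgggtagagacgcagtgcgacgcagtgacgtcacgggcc
Ndufs5, chr4:123718187-123718436, minus strand, ERR letters 228 bases before the start: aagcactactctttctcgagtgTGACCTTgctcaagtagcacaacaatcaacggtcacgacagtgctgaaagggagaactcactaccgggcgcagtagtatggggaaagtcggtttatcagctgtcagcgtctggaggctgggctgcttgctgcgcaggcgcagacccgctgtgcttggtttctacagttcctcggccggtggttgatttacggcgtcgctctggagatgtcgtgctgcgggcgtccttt

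Heart signal was well above background at 27.0% to 37.7% of an array's spots, least on WT TAB replicate 1, and the number of arrays limits the precision. All 4 arrays of a group shared a slide with no other group, so the effects of slide and of group cannot be told apart. Stub1 was lower in CHIP-/- than in WT hearts by 1.70 after sham and by 1.34 after TAB on the log2 scale, without overlap. Of the sham arrays, WT replicates 1 and 3 and CHIP-/- replicate 1 had high Myl7, an atrial myosin light chain (1.89 to 3.82, against -1.99 to 0.17 on the other 13 arrays), and WT replicate 4 and CHIP-/- replicates 2 and 4 had Y-linked Ddx3y and Eif2s3y well above background, as no TAB array did. In bulk tissue, fewer cells of a type and less RNA per cell cannot be told apart.

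TAB in CHIP-/- hearts was followed by lower levels of most complex I genes. With a gene called where limma's adjusted p was below 0.05, 25 of the 35 genes fell and none rose, against 23.1% of all 11058 features that fell and 24% that rose. At an unadjusted p below 0.05, 27 were lower and 0 higher. All 35 differences were negative, from -0.86 to -0.01, with a median of -0.36 on the log2 scale, against -0.01 for all features. Of the core subunits 6 of 6 fell, with a median of -0.55, and of the 28 measured accessory subunits 18 fell, with a median of -0.27. No test was made of the difference between the classes. The TAB and sham arrays did not overlap for 23 of the 35 genes, against 42.4% of all features. All 35 genes fell when each array was centred on its median in place of the loess curve (median -0.88). In that setting 4978 of all 11058 features fell in CHIP-/- hearts. It moved the median of all features to -0.22 in CHIP-/- and to -0.19 in WT.

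The flavin and iron-sulphur subunits at the entry of electrons fell in CHIP-/- hearts, Ndufs1 and Ndufv1 among the furthest of all members. Ndufs1, which carries iron-sulphur clusters, had log2 ratios of 1.14, 1.39, 1.10 and 1.24 in CHIP-/- TAB hearts, against 2.10, 2.04 and 2.09 in CHIP-/- sham hearts (replicate 4 was left out for an outlier mark). The groups stood far apart, and Ndufs1 fell by 0.86 (SE 0.08, adjusted p = 1.5e-08), to 0.553 of its sham level, the furthest fall of the complex I genes described here. Ndufv1, which binds NADH and the flavin, had 0.98, 1.16, 0.94 and 1.09 in CHIP-/- TAB hearts, against 1.81, 1.70, 1.81 and 1.71 in CHIP-/- sham hearts. Every TAB array lay below every sham array, and the fall was 0.72 (SE 0.07, adjusted p = 7.7e-09). Ndufv2, a further iron-sulphur subunit at the NADH end, had 0.14, 0.53, 0.05 and 0.11 in CHIP-/- TAB hearts, against 0.60, 0.74, 0.69 and 0.78 in CHIP-/- sham hearts. Replicate 2 lay well above the other TAB arrays but still under the sham arrays, and Ndufv2 fell by 0.49 (SE 0.09, adjusted p = 0.00012).

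The other measured core subunits fell as well in CHIP-/- hearts. Ndufs7, which helps to form the ubiquinone site, had 1.55, 1.84, 1.55 and 1.66 in CHIP-/- TAB hearts, against 2.36, 2.23, 2.26 and 2.20 in CHIP-/- sham hearts. The groups did not overlap, and the fall was 0.61 (SE 0.08, adjusted p = 6.7e-07). Ndufs8, which holds iron-sulphur clusters, had 0.92, 1.35, 1.16 and 1.19 in CHIP-/- TAB hearts, against 1.68, 1.55, 1.70 and 1.66 in CHIP-/- sham hearts. Ndufs3, whose promoter window is printed above, had 0.96, 1.24, 1.05 and 1.09 in CHIP-/- TAB hearts, against 1.59, 1.57, 1.52 and 1.49 in CHIP-/- sham hearts. Neither overlapped between the groups, and they fell by 0.49 (SE 0.09, adjusted p = 6.6e-05) and by 0.46 (SE 0.07, adjusted p = 2.2e-05).

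**Figure D1:**
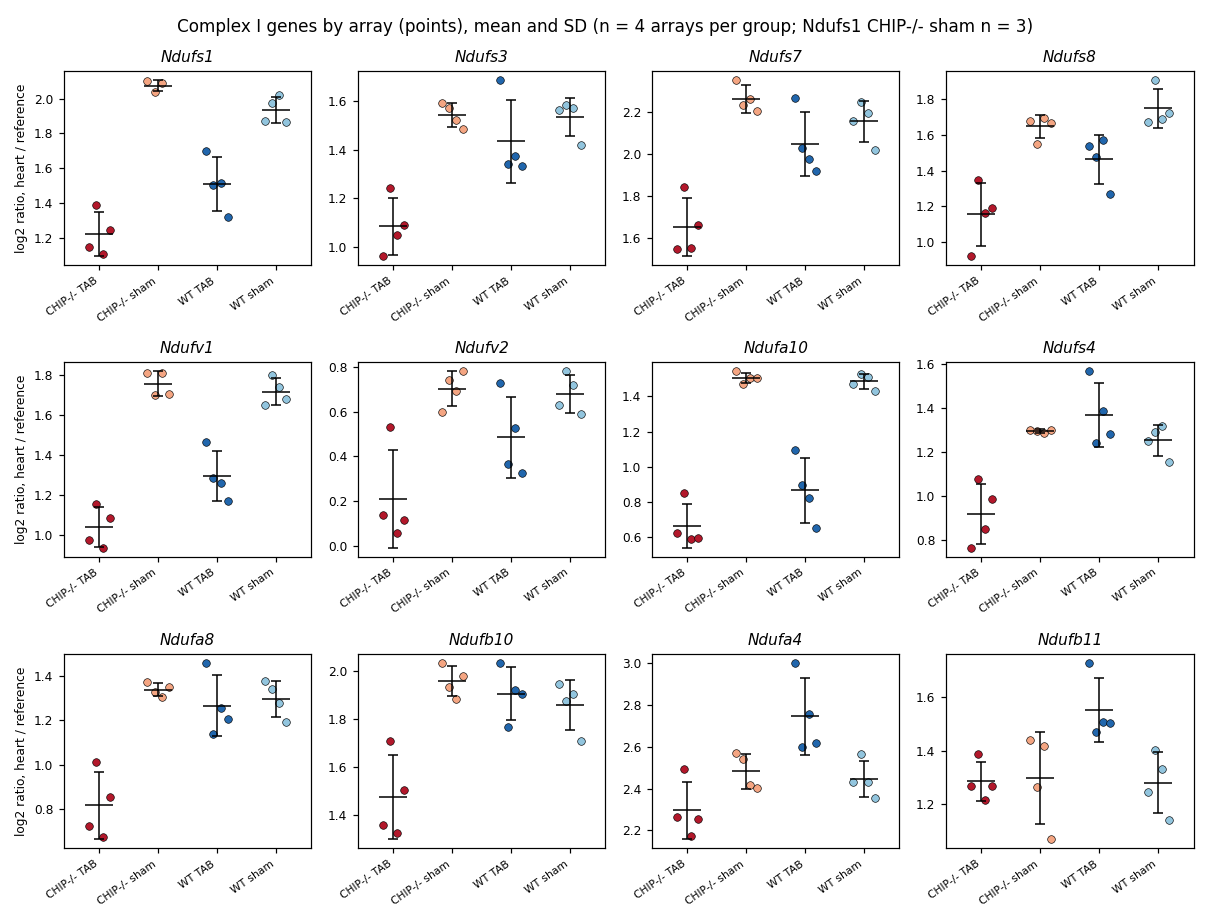
Log2 ratios of heart over reference RNA (y axis) on each array (points) for the 6 core subunits and 6 accessory genes, in CHIP-/- TAB, CHIP-/- sham, WT TAB and WT sham hearts, with the mean and SD of each group. Ndufv1 lies between 0.94 and 1.16 in CHIP-/- TAB hearts and between 1.70 and 1.81 in CHIP-/- sham hearts, while Ndufa4 and Ndufb11 are highest in WT TAB hearts.

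Among accessory subunits the response in CHIP-/- hearts was wide. Ndufa10, a membrane-arm subunit with a nucleoside kinase fold, had 0.62, 0.85, 0.59 and 0.60 in CHIP-/- TAB hearts, against 1.54, 1.47, 1.50 and 1.50 in CHIP-/- sham hearts. It fell by 0.84 (SE 0.07, adjusted p = 5.3e-09), further than every measured core subunit but Ndufs1. Ndufab1, the mitochondrial acyl carrier protein, fell by 0.60 (SE 0.08, adjusted p = 2.5e-06) by its brightest probe. At the other end Ndufb11, a membrane-arm subunit encoded on the X chromosome, had 1.27, 1.39, 1.22 and 1.27 in CHIP-/- TAB hearts, against 1.44, 1.26, 1.42 and 1.07 in CHIP-/- sham hearts. The arrays overlapped and the difference was -0.01 (SE 0.08, adjusted p = 0.92). By position in the enzyme, 6 of 8 accessory subunits of the matrix arm fell (median -0.37), and so did 11 of 18 measured ones of the membrane arm (median -0.22). Ndufaf1, an assembly factor for the membrane arm, had 0.26, 0.50, 0.43 and 0.44 in CHIP-/- TAB hearts, against 0.82, 0.91, 0.86 and 0.98 in CHIP-/- sham hearts. It fell by 0.49 (SE 0.07, adjusted p = 4.2e-06), without overlap.

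TAB in WT hearts left most of these genes uncalled. Of the 35 genes 8 rose and 6 fell, against 18.7% and 16.9% of all features, and the median was 0.05, against 0.00 for all features. The counts are near those shares. All 8 genes that rose were accessory by name, and the 6 that fell were 3 core subunits, the accessory Ndufa10 and Ndufb5, and Ndufaf1. The median was -0.24 over the 6 core subunits, of which none rose (0 at an unadjusted p below 0.05), and 0.10 over the 28 accessory subunits. The direction of the genes that rose depends on the normalization: with median centring 0 genes rose and 24 fell, and the median was -0.39, beside -0.19 for all features. Of all 11058 features 384 rose and 4020 fell in that setting. Groups did not overlap for 13 of the 35 genes, against 31.8% of all features.

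Ndufa10 led the falls in WT hearts. Ndufa10 had 1.10, 0.90, 0.82 and 0.65 in WT TAB hearts, against 1.47, 1.52, 1.51 and 1.43 in WT sham hearts, and fell by 0.62 (SE 0.07, adjusted p = 1.3e-06). Every TAB array lay below every sham array. Ndufs1 had 1.70, 1.50, 1.52 and 1.32 in WT TAB hearts, against 1.87, 1.98, 2.02 and 1.87 in WT sham hearts, and fell by 0.42 (SE 0.07, adjusted p = 0.00011). Ndufv1 had 1.47, 1.29, 1.26 and 1.17 in WT TAB hearts, against 1.65, 1.80, 1.74 and 1.68 in WT sham hearts, and also fell by 0.42 (SE 0.07, adjusted p = 2.8e-05). These were separate between the groups, with WT TAB replicate 1 nearest to the sham arrays in each. Ndufs8 had 1.54, 1.47, 1.57 and 1.27 in WT TAB hearts, against 1.67, 1.91, 1.69 and 1.72 in WT sham hearts, and fell by 0.29 (SE 0.09, adjusted p = 0.013). Its call ended without WT sham replicate 2 (-0.23) and without WT TAB replicate 4 (-0.22). Ndufb5 of the membrane arm fell by 0.26 and Ndufaf1 by 0.22, the second not without WT TAB replicate 2 (-0.19).

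The remaining core subunits were not called in WT hearts. Ndufs7 had 2.27, 2.03, 1.98 and 1.92 in WT TAB hearts, against 2.16, 2.25, 2.20 and 2.02 in WT sham hearts (-0.11, SE 0.08, adjusted p = 0.29). Ndufs3 had 1.69, 1.34, 1.37 and 1.33 in WT TAB hearts, against 1.56, 1.59, 1.57 and 1.42 in WT sham hearts (-0.10, SE 0.07, adjusted p = 0.31). Ndufv2 had 0.73, 0.36, 0.53 and 0.33 in WT TAB hearts, against 0.63, 0.78, 0.72 and 0.59 in WT sham hearts (-0.19, SE 0.09, adjusted p = 0.1). In all 3 genes WT TAB replicate 1 was the highest of its group. It lay above every WT sham array for Ndufs3 and Ndufs7 and within the range of the sham arrays for Ndufv2, and the other 3 TAB arrays of Ndufs3 lay below every sham array.

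The genes that rose in WT hearts were led by Ndufa4, which is now counted as a subunit of complex IV. It had 3.00, 2.60, 2.76 and 2.62 in WT TAB hearts, against 2.43, 2.56, 2.43 and 2.36 in WT sham hearts, without overlap. The rise was 0.30 (SE 0.08, adjusted p = 0.0063), and with median centring the difference was -0.19. Ndufb11 had 1.73, 1.47, 1.51 and 1.50 in WT TAB hearts, against 1.25, 1.40, 1.33 and 1.14 in WT sham hearts, and rose by 0.27 (SE 0.08, adjusted p = 0.011), against -0.26 with median centring. Replicate 1 was the highest TAB array in both genes. Ndufc1, Ndufb7 and Ndufs5, all of the membrane arm, rose by 0.23, 0.22 and 0.21, and with median centring were at -0.24, -0.28 and -0.35. Ndufa2 rose by 0.21, Ndufa13, also known as GRIM-19, by 0.20 and Ndufc2 by 0.17, and with median centring they were at -0.24, -0.35 and -0.26. Without WT TAB replicate 1 the number of genes that rose was 3, without WT sham replicate 4 it was 4 and without WT TAB replicate 3 it was 5. Without the 3 sham arrays with high Myl7 it was 1, and without the 3 with Y-linked transcripts 4. Over all features 2067 rose with all arrays, 1385 without the high Myl7 arrays and 1884 without those with Y-linked transcripts. Among the arrays whose loss ended the calls of Ndufc1 and Ndufs5 were WT TAB replicate 1 (0.15 for each) and WT sham replicate 4 (0.18 and 0.16).

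**Figure D2:**
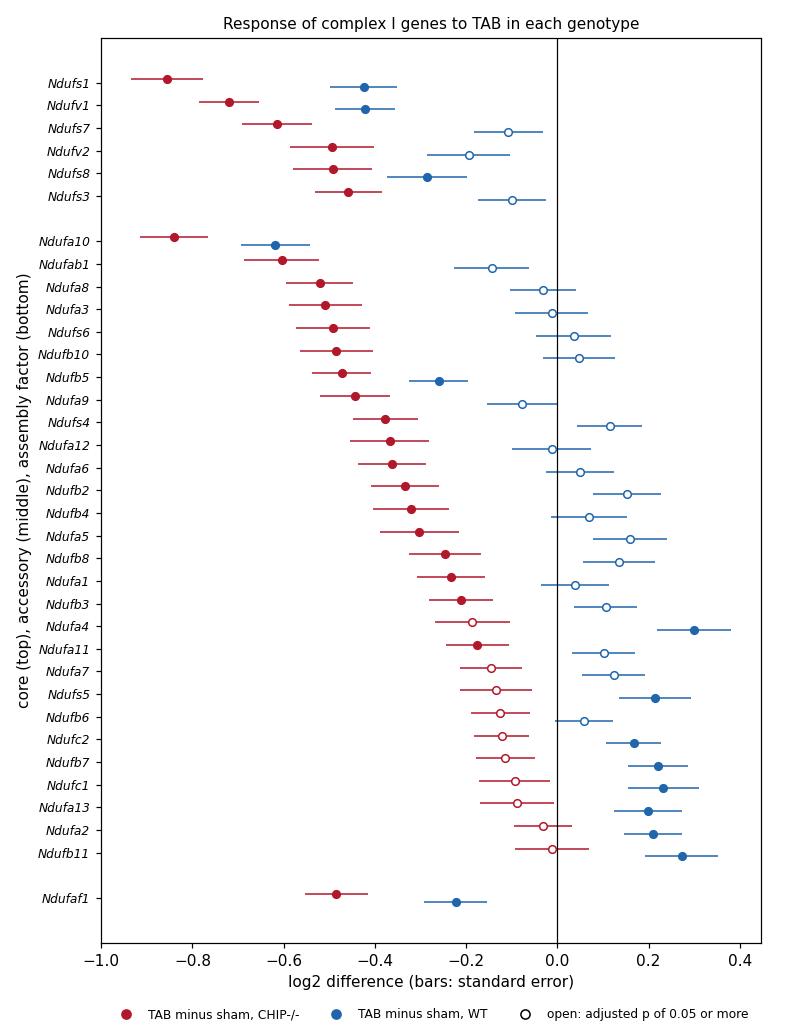
Log2 difference of TAB minus sham (x axis, bars are the standard error) in CHIP-/- hearts (red) and WT hearts (blue) for the 35 measured genes, filled where the adjusted p was below 0.05. Every gene lies further left in CHIP-/- hearts, from -0.86 for Ndufs1 to -0.01 for Ndufb11, and in WT hearts values run from -0.62 for Ndufa10 to 0.30 for Ndufa4.

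The order of the genes by their TAB difference was close between the genotypes. Over the 35 genes the TAB difference in CHIP-/- and that in WT had a Pearson correlation of 0.888 and a Spearman correlation of 0.886, a description across genes that share arrays within each genotype and none between them. All 6 genes that fell in WT also fell in CHIP-/-. A further 19 fell in CHIP-/- and were not called in WT, the 8 that rose in WT were not called in CHIP-/-, and Ndufa7 and Ndufb6 were called in neither by the brightest probe. The differences also followed brightness across genes: with mean log2 intensity the Pearson correlation was 0.365 in CHIP-/-, 0.544 in WT and -0.356 for the interaction, and its part in the results was not tested.

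The interaction, which is the TAB difference in CHIP-/- minus that in WT, tests whether the genotypes differ in their response. It was negative for all 35 genes, from -0.53 to -0.18 with a median of -0.35, against 0.00 for all features. Of the genes 16 passed the test downward and 0 upward (33 and 0 at an unadjusted p below 0.05), against 2.57% and 2.82% of all features. They were 3 of the 6 core subunits and 13 of the 28 accessory ones, 5 of them in the matrix arm, 6 in the membrane arm, with Ndufab1 and Ndufa4 beside them. With median centring 0 genes passed and the median was -0.45, and 82 of all 11058 features passed downward.

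The interaction of Ndufs4, an accessory subunit whose loss causes fatal encephalopathy in mice, had the smallest adjusted p. Ndufs4 had 0.77, 1.08, 0.85 and 0.99 in CHIP-/- TAB hearts, against 1.30, 1.30, 1.29 and 1.30 in CHIP-/- sham hearts. It had 1.57, 1.24, 1.39 and 1.28 in WT TAB hearts, against 1.25, 1.29, 1.32 and 1.16 in WT sham hearts. Only the CHIP-/- TAB arrays stood apart, and the interaction was -0.49 (SE 0.10, adjusted p = 0.0061). Ndufb10, a membrane-arm subunit, had 1.36, 1.71, 1.32 and 1.51 in CHIP-/- TAB hearts, against 2.03, 1.93, 1.88 and 1.98 in CHIP-/- sham hearts. It had 2.04, 1.77, 1.92 and 1.90 in WT TAB hearts, against 1.95, 1.87, 1.90 and 1.71 in WT sham hearts, so that the WT groups overlapped, and its interaction was -0.53 (SE 0.11, adjusted p = 0.0073). The interactions of Ndufa8, Ndufs7, Ndufb2, Ndufs6, Ndufa3 and Ndufa4 lay between -0.53 and -0.49, that of Ndufs1 was -0.43 (SE 0.11, adjusted p = 0.022), and that of Ndufab1 was -0.46 by its brightest probe and 0.0106 by the median of its probes. That of Ndufa10 (-0.22, adjusted p = 0.26), which fell furthest in WT, did not pass.

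These interaction calls rest on few arrays. Without WT sham replicate 4 the count was 8, without CHIP-/- sham replicate 1, CHIP-/- TAB replicate 1 or CHIP-/- TAB replicate 3 it was 9, without CHIP-/- sham replicate 2 it was 10, and without CHIP-/- TAB replicate 2 it was 25. Without the 3 sham arrays with high Myl7 it was 5 (median -0.35), and without the 3 with Y-linked transcripts 0 (median -0.34). The calls over all 11058 features fell in number too. Downward they were 284 with all arrays, 151 without WT sham replicate 4, 167 without the high Myl7 arrays and 46 without those with Y-linked transcripts. The call of Ndufs1 ended without any of WT sham replicate 4, CHIP-/- sham replicates 1 and 3, or CHIP-/- TAB replicate 3 (-0.42 to -0.39).

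After TAB, CHIP-/- hearts had lower levels than WT hearts of nearly the whole set. Of the 35 genes 31 were lower and none higher (34 and 0 at an unadjusted p below 0.05), against 6.32% and 5.21% of all features. All 35 differences were negative, with a median of -0.28, against -0.01 for all features. By class, 5 of 6 core subunits were lower with a median of -0.30, and 25 of 28 accessory subunits with a median of -0.28. The 4 genes not called were Ndufv2 (-0.28, adjusted p = 0.054), Ndufa10 (-0.20, adjusted p = 0.085), Ndufa11 (-0.17, adjusted p = 0.12) and Ndufb5 (-0.11, adjusted p = 0.31). The arrays did not overlap for 17 of the 35 genes, against 12.9% of all features.

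By adjusted p the furthest apart was Ndufs4, whose CHIP-/- TAB arrays reached at most 1.08 and whose WT TAB arrays began at 1.24, a difference of -0.45 (SE 0.07, adjusted p = 0.00021). Ndufa8 followed with -0.45, Ndufb2 with -0.44, Ndufa4 with -0.45, Ndufb10 with -0.43, Ndufs6 with -0.44, Ndufs7 with -0.40, Ndufa3 with -0.39, Ndufs3 with -0.35 and Ndufc2 with -0.28. Of the other core subunits, Ndufs1 was lower by 0.29, Ndufs8 by 0.31 and Ndufv1 by 0.26, on the log2 scale. The values of Ndufs1 and Ndufs8 overlapped between the genotypes, with WT TAB replicate 4 below CHIP-/- TAB replicate 2 in each. The calls of Ndufs1, Ndufv1 and Ndufs8 ended without WT TAB replicate 1 (-0.23, -0.20 and -0.28) and without CHIP-/- TAB replicate 3 (-0.25, -0.22 and -0.31), and that of Ndufs8 also without WT TAB replicate 3 (-0.27) or CHIP-/- TAB replicate 1 (-0.23). Ndufaf1 was lower by 0.22 (SE 0.07, adjusted p = 0.044), a call that 20 of 32 other settings ended. With median centring 6 genes were lower and the median was -0.32, and 194 of all 11058 features were lower. Without WT TAB replicate 1 the count was 16, without CHIP-/- TAB replicate 3 it was 17 and without CHIP-/- TAB replicate 1 it was 18. Over all features 699 were lower with all arrays, and 457, 432 and 483 in these settings, in that order.

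After sham surgery no complex I gene differed between CHIP-/- and WT hearts by limma's test, and at an unadjusted p below 0.05 the counts were 0 higher and 0 lower. Over all features 0.0181% were called higher and 0.0181% lower. The differences ran from -0.10 for Ndufs8 to 0.14 for Ndufs1, with a median of 0.05, against -0.01 for all features. Ndufs1 had 2.10, 2.04 and 2.09 in CHIP-/- sham hearts, against 1.87, 1.98, 2.02 and 1.87 in WT sham hearts, with a difference of 0.14 (SE 0.08, adjusted p = 0.72). Its arrays did not overlap, which held for 1 of the 35 genes, against 5.36% of all features. Such a p does not show that the levels were alike.

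**Figure D3:**
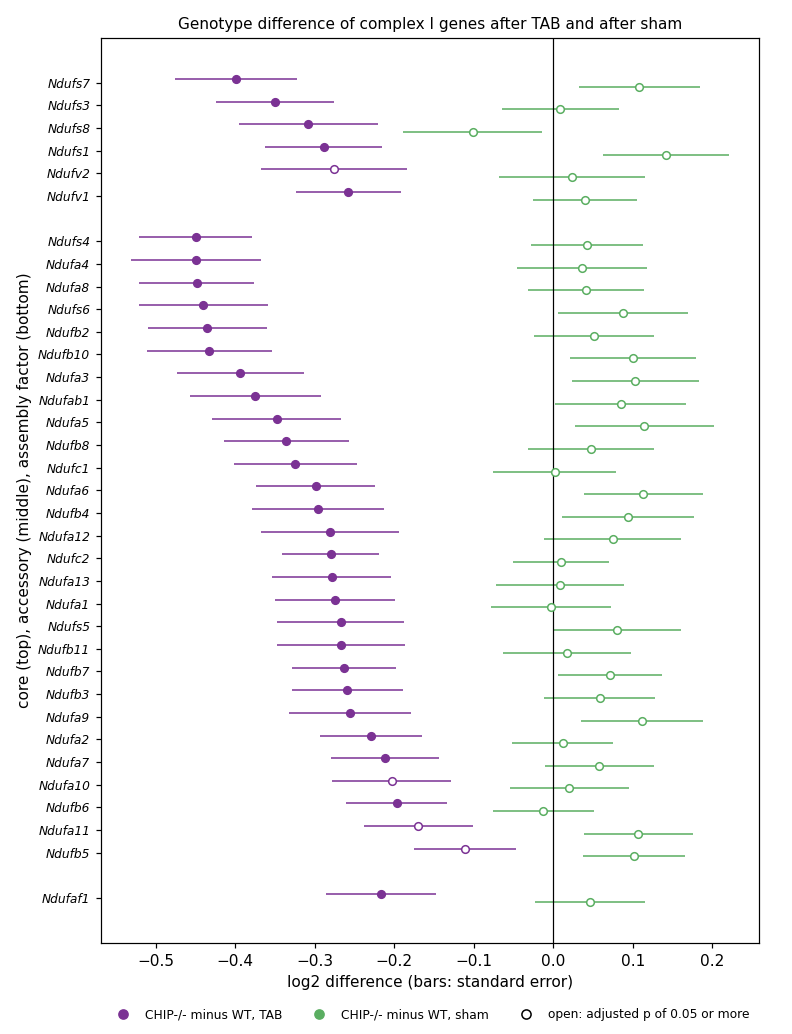
Log2 difference of CHIP-/- minus WT (x axis, bars are the standard error) after TAB (purple) and after sham surgery (green) for the 35 measured genes, filled where the adjusted p was below 0.05. After TAB all genes lie left of 0, between -0.45 and -0.11, and after sham they lie between -0.10 and 0.14 with none filled.

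Taken as per-array medians over the 35 genes, the log2 ratios were 1.36, 1.62, 1.32 and 1.46 in CHIP-/- TAB hearts, against 1.84, 1.82, 1.79 and 1.71 in CHIP-/- sham hearts. They were 1.93, 1.59, 1.72 and 1.68 in WT TAB hearts, against 1.78, 1.80, 1.74 and 1.66 in WT sham hearts. CHIP-/- TAB replicate 2 was the highest of its group, WT TAB replicate 1 the highest of all 16 arrays, and only the CHIP-/- groups were separate.

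Most genes were read by 1 probe past the threshold, and 8 by several. For Ndufs6 all 3 probes fell in CHIP-/- hearts (-0.52 to -0.43), and for Ndufa12 all 3 did too (-0.47 to -0.36). The probes of other genes differed in their calls. The second probe of Ndufb8 was not called in CHIP-/- hearts (-0.15, adjusted p = 0.23), where the brightest fell by 0.25. The second probe of Ndufa7 fell in CHIP-/- hearts (-0.19, adjusted p = 0.034), where the brightest did not pass (-0.15). The second probe of Ndufc1 was not called in WT hearts (0.12, adjusted p = 0.23), where the brightest rose by 0.23. For Ndufab1 the probes lay furthest apart in CHIP-/- hearts. Its brightest probe fell by 0.60 in CHIP-/- hearts, while the other probes past the threshold were at -0.05 and -0.20 and were not called (adjusted p = 0.72 and 0.17), and in WT hearts the dimmest of them fell by 0.45 where the brightest did not pass (-0.14). No gene had probes called in opposite directions. The brightest probe of Ndufa1 had values on 14 arrays and was left out of the model, so a dimmer probe stands for that gene. It fell by 0.23 in CHIP-/- hearts (adjusted p = 0.014), a call that 3 of 32 other settings ended. In those settings the Ndufa1 difference was at its weakest -0.10, and the weakest adjusted p from limma was 0.43. One of the 32 settings accepted values on at least 12 arrays, which lets the brightest probe stand for Ndufa1. The weakest values may therefore come from that probe. Below the threshold were 4 probes, 1 each of Ndufa3, Ndufab1, Ndufs1 and Ndufs4, well above background on 0 arrays, and just inside it was the second probe of Ndufb8, on 8 of 16 arrays. The other 46 probes were well above background on all 16. Ndufb9, which was left out of the model, had means of 1.70 ± 0.13 (SD, n = 4) in CHIP-/- TAB hearts, 2.07 ± 0.08 (n = 4) in WT TAB hearts and 1.86 ± 0.08 (n = 4) in WT sham hearts, and 1 value, 1.99, in CHIP-/- sham hearts.

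Some complex I genes stand on the array under other names. Of 7 such genes, which are the accessory Ndufv3 and the assembly factors Ndufaf2 to Ndufaf7, 5 fell in CHIP-/- hearts and none rose, and in WT hearts 1 rose and none fell. Ndufv3 fell by 0.45 in CHIP-/- hearts and had -0.12 in WT hearts, and Ndufaf4 fell by 0.22 in CHIP-/- hearts and rose by 0.17 in WT hearts. Of 9 measured assembly factors named otherwise, 5 fell and 1 rose in CHIP-/- hearts, and 4 fell in WT hearts. Over all features 23.1% fell and 24% rose in CHIP-/- hearts, and 16.9% fell and 18.7% rose in WT hearts. Foxred1, an oxidoreductase needed to assemble complex I, fell by 0.69 in CHIP-/- and by 0.57 in WT hearts. Acad9, which acts in assembly beside Ndufaf1, fell by 0.28 in CHIP-/- and by 0.52 in WT hearts. Tmem70, best known from the assembly of complex V, fell by 0.48 in CHIP-/- and by 0.34 in WT hearts, and Dmac2 by 0.42 and by 0.38. Nubpl, which delivers iron-sulphur clusters to complex I, fell in CHIP-/- hearts (-0.46) and was not called in WT hearts (-0.03, interaction adjusted p = 0.076). Dmac1 rose in CHIP-/- hearts (0.15) and was not called in WT hearts (0.14, interaction adjusted p = 0.97).

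Most of the measured regulators of respiratory genes fell after TAB in both genotypes. Of 12 measured of 15 listed, 8 fell in CHIP-/- hearts (median -0.43) and 8 in WT hearts (median -0.27). Over all features 23.1% fell in CHIP-/- and 16.9% in WT hearts. None of the 12 was called higher. Their differences ran from -0.92 to 0.16 in CHIP-/- and from -0.89 to -0.04 in WT hearts. Ppargc1a, the coactivator PGC-1alpha, had 0.35, 0.59, 0.38 and 0.60 in CHIP-/- TAB hearts, against 1.34, 1.42, 1.38 and 1.43 in CHIP-/- sham hearts, a fall of 0.92 (adjusted p = 3.7e-08). It had 1.60, 1.53, 1.30 and 1.24 in WT TAB hearts, against 1.23, 1.36, 1.50 and 1.73 in WT sham hearts (-0.04, adjusted p = 0.79), and was the only one of the 12 whose interaction passed (-0.88, adjusted p = 0.00069). The related coactivator gene Ppargc1b fell by 0.49 in CHIP-/- and by 0.49 in WT hearts. Esrra, encoding an estrogen-related receptor, fell by 0.50 in CHIP-/- and by 0.30 in WT hearts, and Ppara, a nuclear receptor of fatty acid use, by 0.80 and by 0.57. Tfam, Tfb1m and Tfb2m, which act in mitochondrial transcription, fell by 0.39, 0.34 and 0.47 in CHIP-/- hearts and by 0.26, 0.28 and 0.39 in WT hearts. Esrrb fell by 0.62 and by 0.89, while Esrrg was called in WT hearts (-0.25) and not in CHIP-/- hearts (-0.19).

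Genes of the other respiratory complexes fell as well in CHIP-/- hearts. In CHIP-/- hearts 4 of 4 measured complex II genes fell, 4 of 7 of complex III, 9 of 13 of complex IV (1 rose) and 11 of 14 of complex V, with medians of -0.74, -0.44, -0.21 and -0.35. In WT hearts 4 of 4 complex II genes fell, 3 of 7 of complex III fell and 1 rose, 1 of 13 of complex IV fell and 3 rose, and 2 of 14 of complex V fell and 2 rose, with medians of -0.45, -0.15, 0.10 and 0.02. Tricarboxylic acid cycle genes, which overlap complex II, fell in 14 of 14 cases in both genotypes, with medians of -0.80 in CHIP-/- and -0.41 in WT hearts. The complex IV list holds Ndufa4. Over all features 23.1% fell and 24% rose in CHIP-/- hearts, and 16.9% fell and 18.7% rose in WT hearts. The WT counts of complexes IV and V are near those shares. After TAB, 2 of 4 complex II and 5 of 7 complex III genes were lower in CHIP-/- than in WT hearts. So were 10 of 13 of complex IV, 12 of 14 of complex V and 10 of 14 of the tricarboxylic acid cycle. Over all features 6.32% were lower. The interaction medians, in that order, were -0.26, -0.29, -0.40, -0.33 and -0.35, beside -0.35 for the complex I genes. Interactions passed downward for 1, 1, 6, 5 and 5 genes, against 2.57% of all features. No test was made of differences between these lists.

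**Figure D4:**
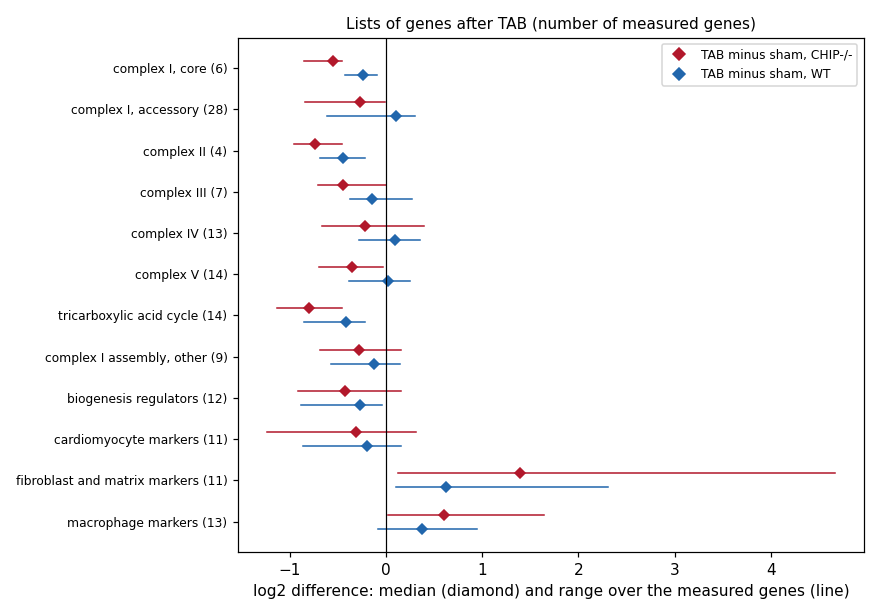
Median (diamond) and range (line) of the log2 difference of TAB minus sham (x axis) over the measured genes of each list (number in brackets) in CHIP-/- hearts (red) and WT hearts (blue). The core complex I median lies at -0.55 in CHIP-/- and -0.24 in WT hearts, and that of accessory genes at -0.27 and 0.10.

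Markers of the cells in the tissue moved with TAB beside these genes, and their part in the results was not tested. Over all features 23.1% fell and 24% rose in CHIP-/- hearts, and 16.9% fell and 18.7% rose in WT hearts. Of 11 measured cardiomyocyte markers of 14 listed, 9 fell and 1 rose in CHIP-/- hearts (median -0.31), and 6 fell in WT hearts (median -0.20). Their per-array median log2 ratio was 2.72 to 3.02 in CHIP-/- TAB hearts, against 2.80 to 3.61 in CHIP-/- sham hearts, and 3.27 to 3.68 in WT TAB hearts, against 3.07 to 3.52 in WT sham hearts. All 11 fibroblast and matrix markers were measured, and 9 rose in each genotype, with medians of 1.39 in CHIP-/- and 0.62 in WT hearts. Of 13 measured markers of macrophages and monocytes, 12 rose in CHIP-/- hearts (median 0.61) and 10 in WT hearts (median 0.38). After TAB, 6 of the 11 fibroblast and matrix markers and 8 of the 13 macrophage markers were higher in CHIP-/- than in WT hearts (1 macrophage marker was lower), and 5 of the 11 cardiomyocyte markers were lower. Over all features 5.21% were higher and 6.32% lower in that comparison. Of 7 smooth muscle and pericyte markers 6 rose in each genotype, with medians of 0.44 in CHIP-/- and 0.35 in WT hearts. Their per-array median log2 ratio was -0.16 to 0.88 in CHIP-/- TAB hearts, against -1.49 to -1.07 in CHIP-/- sham hearts, and -0.66 to -0.40 in WT TAB hearts, against -1.62 to -1.02 in WT sham hearts. Of 9 endothelial markers 4 rose and 1 fell in CHIP-/- hearts (median 0.11), and 6 rose and 1 fell in WT hearts (median 0.38). Of 4 measured adipocyte markers 4 rose in CHIP-/- hearts (median 0.45) and 2 in WT hearts (median 0.28). Of 5 measured atrial markers 2 rose in CHIP-/- hearts and 1 in WT hearts, of 5 skeletal muscle markers 1 rose and 1 fell in each genotype, and of 2 measured erythroid markers 0 were called in either by limma (0 at an unadjusted p below 0.05).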

How the data were processed

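Each of 16 arrays compared Cy5-labelled heart RNA with a Cy3-labelled whole mouse reference, per the labels' protocols. Per the file headers, Feature Extraction 9.1.3.1 read images of a GenePix 4000B scanner. The deposited files give linear intensities (mean signal and local background) and the authors' log10 ratio of processed signals, and a deposited matrix holds log2 ratios for 14322 probes, centred on each probe, with medians per array between -0.034 and 0.03.

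Mean signals were corrected with normexp (offset 50) and log2 ratios normalized by loess within each array, with control and outlier spots at weight 0. Outlier spots were left out, saturated spots kept and spots of a probe averaged. The filter kept 14908 probes whose heart signal was well above background on at least 4 arrays. Each gene was read by its brightest probe with values on at least 15 arrays, giving 11058 features. One linear model with a mean per group was fitted with limma 3.58.1 in R 4.3.3 (data.table version 1.17.8), using moderated variances that follow an intensity trend. Adjusted p-values are limma's, by the Benjamini-Hochberg method within each comparison over the whole set of features, and SE is the standard error of a log2 difference. The labels call the replicates biological without naming animals. The p-values rest on the spread between samples within a group. Each group had its own slide, so spread between slides is not part of it. The model was tested on simulated data.

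Members and gene lists were chosen with earlier results of these data known. Of the genes named Nduf, 1 is not reported here and enters no count of members. Named with values are the core subunits, Ndufaf1, the 5 furthest called in each direction after TAB, up to 10 by adjusted p in the other comparisons, members with conflicting probes or near the detection threshold, and called genes of the related lists. Alternatives were median centring, the deposited log ratios and matrix, no background correction, Aquantile scaling, other filters, every probe, saturated spots out, no trend, a replicate block, fewer arrays and each array left out. Upstream windows come from RefSeq (GRCm38.p6).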

Additional observations from a re-analysis of the deposited data

Results flagged for a closer look

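In 9 cases 1 array lay far from the other 3 of its group, a gap that chance alone gives in about 1 of 20 groups, and 137 groups were examined. The count is near that share. The cases are not independent, since all genes were read on the same 16 arrays. WT TAB replicate 1 was the high array in 5 of them. It had 1.69 for Ndufs3 (others 1.33 to 1.37), 1.53 for Ndufa6 (1.15 to 1.20), 1.44 for Ndufa7 (1.14 to 1.15), 2.34 for Ndufab1 (1.97 to 2.03) and 1.73 for Ndufb11 (1.47 to 1.51). CHIP-/- TAB replicate 2 was high with 0.53 for Ndufv2 (others 0.05 to 0.14) and 0.85 for Ndufa10 (0.59 to 0.62). WT sham replicate 4 was low with 1.42 for Ndufs3 (others 1.56 to 1.59) and 1.09 for Ndufa6 (1.23 to 1.25). WT TAB replicate 1 also had the lowest share of spots well above background in the heart channel, 27.0%.

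For 16 genes the TAB response differed between CHIP-/- and WT by the interaction test. The log2 difference of the responses was -0.53 for Ndufb10 and Ndufs6, -0.51 for Ndufs7, -0.5 for Ndufa3, -0.49 for Ndufs4, Ndufa8, Ndufb2 and Ndufa4, -0.46 for Ndufab1 and Ndufa5, -0.43 for Ndufs1, -0.41 for Ndufa6, -0.38 for Ndufb8, -0.37 for Ndufa9, -0.36 for Ndufs3 and -0.33 for Ndufb7. Adjusted p-values from limma ran from 0.0061 for Ndufs4 to 0.049 for Ndufa9.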

How the results depend on the processing

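The number of complex I genes that fell with TAB in CHIP-/- hearts stayed within 1.5 times of 25 in all 32 other settings (22 to 35). The number that rose in WT hearts, 8, was 0 with median centring, 4 with the deposited log ratio, 5 with the deposited matrix, 4 with no filter, 5 with no intensity trend, 1 without the 3 arrays with high Myl7, 4 without the 3 with Y-linked transcripts, and 3 to 8 with 1 array left out. The number that fell there, 6, was 24 with median centring, where 4020 of all 11058 features fell. The number lower in CHIP-/- than in WT hearts after TAB, 31, was 6 with median centring and 16 to 33 with 1 array left out. The interaction count, 16, was 0 with median centring, 8 with no intensity trend, 5 without the high Myl7 arrays, 0 without those with Y-linked transcripts and 8 to 25 with 1 array left out. Over all features the downward interaction calls, 284, were 82 with median centring and 168 with no intensity trend. They were 167 without the high Myl7 arrays and 46 without those with Y-linked transcripts. Median centring turned the WT differences of Ndufa4 (-0.19), Ndufb11 (-0.26), Ndufc1 (-0.24), Ndufb7 (-0.28), Ndufs5 (-0.35), Ndufa2 (-0.24), Ndufa13 (-0.35) and Ndufc2 (-0.26), and the median over its probes turned the interaction of Ndufab1 (0.0106), whose dimmer probes are the cause by construction. The other causes were not tested. Net signals, added after the data were seen, gave the same member counts. Accepting values on at least 12 arrays, also added, brought in Ndufb9 and let the brightest probe stand for Ndufa1. That setting gave 9 genes that rose in WT hearts and 25 of 36 that fell in CHIP-/- hearts. The interaction has no setting with only its own arrays, since it uses all 16.

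No pairing of the samples by replicate number was seen, which does not exclude one. Deviations of the 24 same-numbered pairs correlated at a median of -0.005 (-0.185 to 0.183), against -0.004 for 72 other pairs. Of the 16 arrays, 6 correlated best with their own number. With the replicate block 25 genes fell in CHIP-/- hearts, 7 rose and 6 fell in WT hearts, 28 were lower in CHIP-/- than in WT hearts after TAB, 0 differed after sham, and 13 interactions passed.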
